A study of Mus musculus with 6 samples.

Results

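T cell activation is tuned by surface receptors that act beside the T cell receptor. Costimulatory receptors add to the signal and inhibitory receptors dampen it. Receptors of the SLAM (signalling lymphocytic activation molecule) family mostly bind copies of themselves on neighbouring cells, and several of them signal through the adaptor SAP. UTX, encoded by Kdm6a, removes methyl groups from lysine 27 of histone H3, a mark of silenced genes, and takes part in the complexes that mark enhancers. The 36 genes described here are 14 costimulatory receptors and ligands, 16 inhibitory receptors, ligands and ectoenzymes, and 6 genes of the SLAM family with its adaptor. They were matched by gene symbol to the 6739 sites of the authors' deposited table, each 401 bp wide, and 28 sites were assigned to 13 of them. All 36 were found among the 21900 protein-coding genes of the annotation.

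UTX binding was profiled by CUT&Tag, in which an antibody against UTX directs a DNA-cutting transposase to the places where the protein sits. The cells were Ly108+CXCR6- CD8+ T cells, a progenitor population, sorted from the pancreatic lymph node of mice with the transgenic NY8.3 T cell receptor. The UTX-deficient strain, UTXTCD.NY8.3 (genotype label UTX_knock), lacks UTX in T cells and gave 3 samples, and WT mice (NOD.NY8.3) gave the other 3. The question was which genes UTX binds directly. Cells of both groups carry the transgenic receptor. The sources used here do not give the promoter that drives the deletion, the deleted exons, the age of the mice or whether samples came from separate animals.

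The table gives means per group, and whole reads per library were recovered from these means, so the libraries carry no replicate number and are given from the deepest to the shallowest. Depth relative to a mean of 1 was 1.93, 1.07 and 0.00577 in the UTX-deficient libraries, against 1.28, 0.916 and 0.792 in the WT libraries. The third UTX-deficient library was nearly empty, with 0 reads in the 28 sites, where 1 read would have counted as 173.2 normalized reads. The deposited group means count this library as 0, so that at Slamf6, for instance, the UTX-deficient mean was 2.55 normalized reads over 3 libraries and 3.83 over the 2 deeper ones. Leaving it out moved the median limma log2 difference of the member sites to -3.68, against -4.27 with all libraries. The site at Kdm6a itself held 8, 12 and 0 reads in the UTX-deficient libraries, against 65, 48 and 35 reads in the WT libraries, and since the deleted part is not given it does not check the genotype. Of 5 CD8 T cell marker genes, Cd3d, Cd3e, Cd8a and Cd8b1 had a listed site and Cd3g had none. No site was listed at Cd79a or Ms4a1 of B cells, at Lyz2, Itgam or Csf1r of myeloid cells, at Ncr1 or Klrb1c of natural killer cells, or at Ins2 or Cpa1 of the pancreas, and of the CD4 and regulatory T cell markers Cd4 had 1 site and Foxp3 none. Both genes used in the sort had sites, Slamf6 (Ly108) with 1 and Cxcr6 with 2, although the gate took cells without surface CXCR6.

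Sites lower in UTX-deficient cells were listed at 7 of 14 costimulatory genes (50%), at 5 of 16 inhibitory genes (31.2%) and at 1 of 6 SLAM genes (16.7%). Over all 36 members the share was 36.1%, beside the 22.1% of all protein-coding genes with such a site. These are counts with no test of the list. Gene length had a median of 25970 bp over the members, against 17146 bp in all protein-coding genes and 26225 bp in those with a site. Members with a site had a median of 25989 bp and those without 24014 bp. With and without a site it was 12032 and 30307 bp for costimulatory, 37365 and 26325 bp for inhibitory, and 31501 and 20635 bp for SLAM genes. The part of length in the share was not tested. The members with sites were Tnfrsf1b with 5, Cd28 with 4, Cd2, Tnfrsf14 and Tigit with 3 each, Tnfrsf9 and Cd6 with 2 each, and Cd27, Tnfrsf18, Cd5, Cd274, Cd101 and Slamf6 with 1 each. The other 23 had none, among them the inhibitory receptor genes Ctla4, Pdcd1, Lag3, Havcr2 and Btla and the costimulatory receptor genes Icos, Tnfrsf4 and Cd226. Within 1 kb of a gene end, sites remained at 3 costimulatory genes, 4 inhibitory genes and 0 SLAM genes, 7 in all, while 15.3% of all protein-coding genes had such a site. That limit left out Cd274, whose site lies on its promoter, because the annotated span begins farther upstream.

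**Figure D1:**
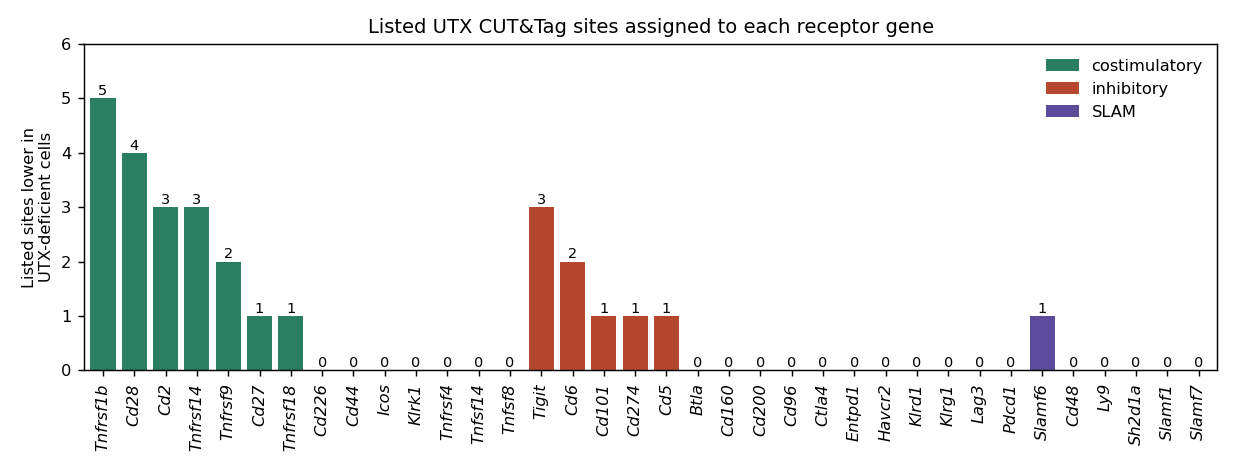
Bars show the number of listed sites assigned to each of the 36 genes, coloured by class (costimulatory, inhibitory, SLAM). Tnfrsf1b had the most sites, 5, and 23 genes had 0.

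All 28 sites were lower in UTX-deficient cells. At each of them the 2 deeper UTX-deficient libraries lay below every WT library in normalized reads. The same held at all 6716 lower sites with recovered reads, and the table holds only sites called different, 81% of the authors' tests being called lower. The near-empty library held 0 reads at the 28 sites, which says little at its depth. The median log2 fold of the 28 sites was -3.39 in the authors' deposited table, against -3.51 over all lower sites. That fold is not the plain difference of the deposited log2 concentrations, which at Slamf6 was -4.37, against a fold of -3.73. Means over the 28 sites were 1.62, 6.39 and 0 normalized reads in the UTX-deficient libraries, against 48.9, 58.4 and 47.0 normalized reads in the WT libraries. The second UTX-deficient library was above the deepest of its group at 26 of the 28 sites and at 84.0% of all lower sites. Limma on the recovered reads, adjusted over 6720 sites, called 28 of the 28 lower with all libraries (99.9% of all sites tested were called lower), with adjusted p up to 0.00254, and again without the near-empty library, with adjusted p up to 0.000449. Over all limma settings the highest adjusted p at a member site lay between 9.94e-05 and 0.0332. These p-values come after the selection of sites by the same reads and measure the spread between samples that may be technical. The libraries are of bulk cells, so fewer cells with signal and less signal per cell cannot be told apart.

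**Figure D2:**
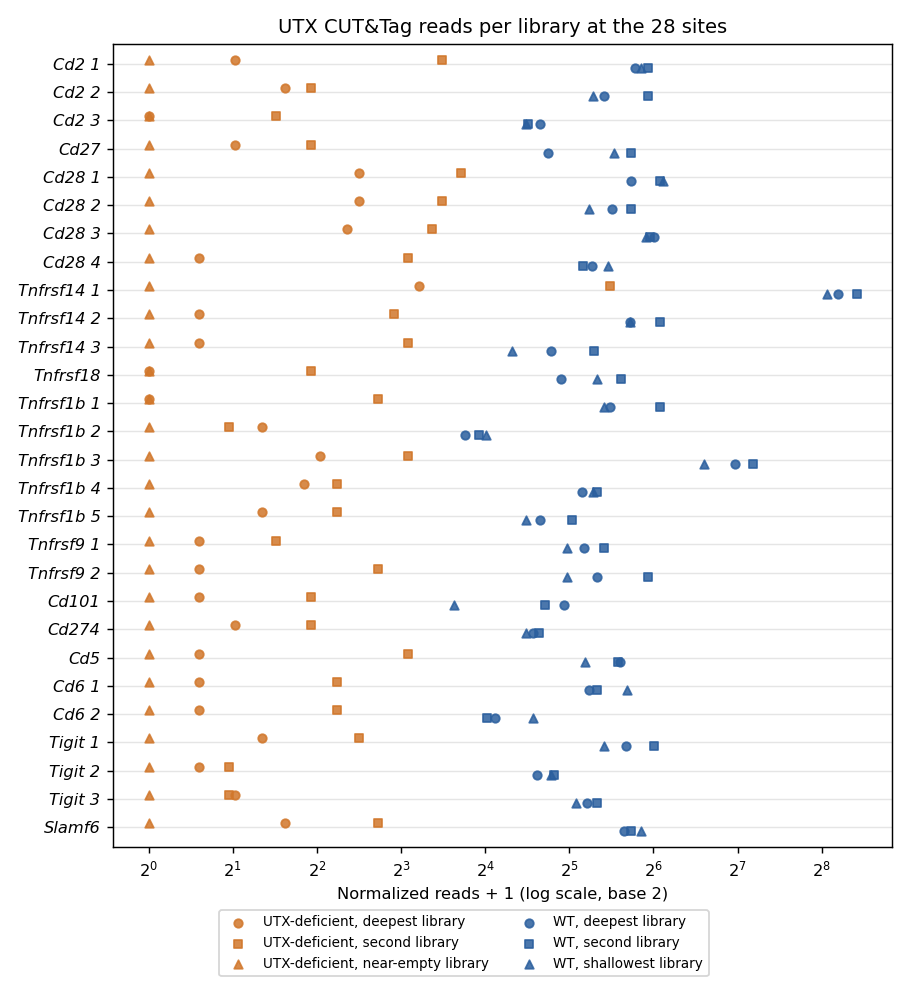
Normalized reads plus 1 (log scale, base 2) in each UTX-deficient and WT library at the 28 sites, with the sites of a gene numbered by position on the chromosome. At every site the points of the 2 deeper UTX-deficient libraries lie left of the WT points. The near-empty library held 0 reads throughout, which says little at its depth.

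Promoters of 5 members lay under a listed site of their own gene, and their sequences are shown because only there do a site and a sequence at hand coincide. A promoter window ran from 250 bases before to 50 bases after the start in RefSeq on GRCm38.p6, the assembly of mm10, and 26 members had at least 1 window. Cd28, Cd2 and Cd6 had listed sites but no window, so their promoters could not be placed. The windows of Tigit, Cd27 and Cd274 lay wholly inside a site, and 298 bases of the Cd101 window and 254 bases of the Cd5 window did. Sequences run 5′ to 3′ along the gene's strand, and capitals mark a match on either strand to the motif letters TGTGGT (RUNX) or CTTTGA (TCF and LEF), or to GGGCGG (GC box), of which the Cd5 window had none.
Tigit, chr16:43664135-43664434, minus strand: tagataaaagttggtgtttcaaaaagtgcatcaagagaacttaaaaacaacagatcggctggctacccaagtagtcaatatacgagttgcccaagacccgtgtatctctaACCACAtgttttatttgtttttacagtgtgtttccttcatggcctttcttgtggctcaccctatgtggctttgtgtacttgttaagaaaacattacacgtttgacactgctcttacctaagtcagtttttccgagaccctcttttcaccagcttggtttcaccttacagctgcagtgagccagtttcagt
Cd27, chr6:125236978-125237277, minus strand: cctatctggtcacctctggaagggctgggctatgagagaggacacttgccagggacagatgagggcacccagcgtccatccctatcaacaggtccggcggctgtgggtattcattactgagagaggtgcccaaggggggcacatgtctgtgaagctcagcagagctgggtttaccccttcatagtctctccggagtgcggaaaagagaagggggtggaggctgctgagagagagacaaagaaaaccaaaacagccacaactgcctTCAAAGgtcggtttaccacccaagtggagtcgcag
Cd274, chr19:29367188-29367487, plus strand: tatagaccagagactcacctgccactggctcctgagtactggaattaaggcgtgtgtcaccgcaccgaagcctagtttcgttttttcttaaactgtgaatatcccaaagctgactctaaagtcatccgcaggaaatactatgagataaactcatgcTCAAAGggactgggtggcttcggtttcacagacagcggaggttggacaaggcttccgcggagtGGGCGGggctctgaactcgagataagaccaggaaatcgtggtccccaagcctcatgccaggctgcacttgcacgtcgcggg
Cd101, chr3:101029504-101029803, minus strand: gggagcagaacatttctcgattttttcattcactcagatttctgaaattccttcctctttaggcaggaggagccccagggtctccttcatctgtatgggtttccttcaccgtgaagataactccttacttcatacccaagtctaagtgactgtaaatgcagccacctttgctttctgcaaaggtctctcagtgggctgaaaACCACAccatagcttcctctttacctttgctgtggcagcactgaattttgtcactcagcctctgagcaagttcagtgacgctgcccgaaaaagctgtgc
Cd5, chr19:10738925-10739224, minus strand: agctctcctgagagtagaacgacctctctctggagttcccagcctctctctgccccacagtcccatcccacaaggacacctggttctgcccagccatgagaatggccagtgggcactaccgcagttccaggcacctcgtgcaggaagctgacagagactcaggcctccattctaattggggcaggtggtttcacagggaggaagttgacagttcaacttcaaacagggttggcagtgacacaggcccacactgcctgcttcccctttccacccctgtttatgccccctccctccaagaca

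Letters of the RUNX motif stood in the Tigit and Cd101 windows, those of TCF and LEF in the Cd27 and Cd274 windows, and a GC box in the Cd274 window. No match to ACAGGAA or CCGGAA (ETS) or to TGANTCA (AP-1) was in these 5 windows. Among 32851 windows of all genes, 16.8% held TGTGGT, 16.0% CTTTGA, 35.7% GGGCGG, 8.67% ACAGGAA, 14.9% CCGGAA and 7.81% TGANTCA. Among the 4208 windows under a listed lower site the shares were 11.8% for TGTGGT, 10.3% for CTTTGA, 78.2% for GGGCGG, 6.42% for ACAGGAA, 31.9% for CCGGAA and 3.52% for TGANTCA. The 5 windows held 3 to 15 CpG dinucleotides with a median of 5, and the other 24 member windows held 1 to 23 with a median of 6. The median was 25 CpG in the 4208 windows of any gene under a listed lower site, against 7 in all windows. The only member window with a site and over 7 CpG was that of Cd274, with 15. Promoter windows were overlapped by 5 of the 28 member sites (17.9%), against 47.1% of all lower sites. The member share is partly set by missing windows. Sites of Cd28, Cd2 and Cd6, some of them at a gene end, had no window of their own to overlap. Of the member sites, 28.6% lay within 1 kb of a gene end and 60.7% overlapped the gene, against 53.2% and 76.4% of all lower sites that could be placed.

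Among costimulatory receptors of the immunoglobulin family, Cd28 carried 4 sites on chromosome 1. CD28 is the receptor for the B7 ligands CD80 and CD86 and gives the classical second signal to naive T cells. The site from 60746184 to 60746584 spans the lower-coordinate end of the gene. It held 9, 13 and 0 reads in the UTX-deficient libraries, against 67, 61 and 54 reads in the WT libraries. Inside the gene, the site from 60755768 to 60756168 held 9, 11 and 0 reads in the UTX-deficient libraries, against 57, 48 and 29 reads in the WT libraries. The next, from 60758182 to 60758582, held 8, 10 and 0 reads in the UTX-deficient libraries, against 81, 56 and 47 reads in the WT libraries. The last lay beyond the gene, with its middle 3842 bp from the other end, and held 1, 8 and 0 reads in the UTX-deficient libraries, against 48, 32 and 34 reads in the WT libraries. The groups did not overlap at any of the 4 sites, nor at any of the 6716 lower sites with recovered reads. Log2 folds in the authors' deposited table were -2.92, -2.57, -3.23 and -2.89 along the chromosome, with the smallest FDR, 8.88e-17, at the site from 60758182.

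Cd28 kept more signal than most sites. The UTX-deficient signal, as reads per unit of depth in the 2 deeper libraries, came to 12.0%, 14.8%, 9.72% and 7.84% of WT at the 4 sites in that order, while the median over all lower sites was 4.90% with quartiles of 3.31% and 7.14%. Exact 95% counting intervals were 7.34% to 18.7% for the first and 8.77% to 23.8% for the second, both above that median. The third, from 5.63% to 15.8%, lay above it as well, and the fourth, from 3.50% to 15.4%, included it. Such intervals cover counting error only. The second site kept as large a share as 98.3% of all lower sites or a larger one, a description with no test.

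Ctla4 and Icos lie beside Cd28 and bind related ligands, and neither had a site. CTLA-4 competes with CD28 for B7 ligands and inhibits, and ICOS is an inducible costimulator. The nearest listed site to both was the last Cd28 site, 131624 bp from Ctla4 and 183372 bp from Icos. Row numbers in the table follow position along each chromosome, and 2 numbers are skipped in the interval that holds both genes. In all, 4092 of the numbers up to 10831 are skipped, and what they stand for is not stated. The authors' tests numbered 8293, fewer than 10831, so some skipped numbers may stand for regions that were not tested.

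Cd2, an adhesion and costimulatory receptor that binds CD48 in mice, had 3 sites on chromosome 3. The one from 101287813 to 101288213 spans an end of the gene and held 0, 2 and 0 reads in the UTX-deficient libraries, against 31, 20 and 17 reads in the WT libraries. The one inside the gene, from 101280326, held 4, 3 and 0 reads in the UTX-deficient libraries, against 53, 55 and 30 reads in the WT libraries. The third, with its middle 934 bp beyond the other end, held 2, 11 and 0 reads in the UTX-deficient libraries, against 69, 55 and 45 reads in the WT libraries. The site with most WT reads was thus outside the gene, and the one with fewest spanned its end. In the authors' deposited table the log2 folds were -3.44, -3.92 and -3.16 in the order given here.

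Receptors of the tumour necrosis factor family held 12 of the 28 sites. Tnfrsf1b encodes TNFR2, the TNF receptor of activated and regulatory T cells, and had 5 sites on chromosome 4. The site from 145236000 to 145236400, inside the gene and 10670 bp from its start, held 6, 8 and 0 reads in the UTX-deficient libraries, against 159, 132 and 76 reads in the WT libraries. WT libraries averaged 121 ± 24.2 normalized reads there (SD, n = 3), a level at or above that of 96.8% of all sites. It had the lowest log2 fold and the smallest FDR of the 28 sites in the authors' deposited table, -4.45 and 4.59e-20. The site from 145229373 was the weakest of the 28, with 3, 1 and 0 reads in the UTX-deficient libraries, against 16, 13 and 12 reads in the WT libraries, and an FDR of 0.0441 in the authors' deposited table, just under the threshold of 0.05. In the authors' deposited table the log2 fold was -3.76 at the site from 145221415 and -3.33 at that from 145240675, both inside the gene, and -2.92 at that from 145254456, before its start. Signal at the same gene thus differed widely between sites in WT cells. Each site was lower in UTX-deficient cells, as were 6718 of the 6739 listed sites.

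Tnfrsf14 encodes HVEM, which takes signals from LIGHT and is in turn the ligand of the inhibitory receptors BTLA and CD160. Its 3 sites lay outside the gene on the upstream side, at -8727, -14695 and -16241 bp from the start. The nearest of them, from 154936604 to 154937004 on chromosome 4, held 16, 47 and 0 reads in the UTX-deficient libraries, against 373, 313 and 211 reads in the WT libraries. That was the strongest site of the members, 299.9 ± 38.3 normalized reads in WT (SD, n = 3), and it ranked 10 among the 6739 sites by WT level. The UTX-deficient libraries had 8.27, 43.8 and 0 normalized reads there, so the second library was well above the deepest. The limma log2 difference there was -3.88 without the near-empty library, against -5.33 with all libraries. Its log2 fold in the authors' deposited table was -3.30 with an FDR of 7.78e-05. The middle site held 1, 7 and 0 reads in the UTX-deficient libraries, against 66, 61 and 41 reads in the WT libraries, and the farthest held 1, 8 and 0 reads in the UTX-deficient libraries, against 34, 35 and 15 reads in the WT libraries. In the authors' deposited table the farthest had the fold nearest to 0 of the 28, -2.19 on the log2 scale, with an FDR of 0.0341. The deposited concentrations order the sites differently, since their difference was -3.39 there and -3.16 at the Cd28 site from 60755768.

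Tnfrsf9 encodes 4-1BB, an inducible costimulator of CD8 T cells. Its site inside the gene, from 150924332, held 1, 6 and 0 reads in the UTX-deficient libraries, against 50, 55 and 24 reads in the WT libraries. The other, from 150914185, lay 5770 bp before the start and held 1, 2 and 0 reads in the UTX-deficient libraries, against 45, 38 and 24 reads in the WT libraries. An end of Park7 was nearer to that second site, at 4464 bp. Cd27, a costimulator and memory marker, had its site on the promoter shown above. It held 2, 3 and 0 reads in the UTX-deficient libraries, against 33, 48 and 36 reads in the WT libraries. In the authors' deposited table the log2 folds were -3.47 and -4.29 for Tnfrsf9 and -3.96 for Cd27.

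Tnfrsf18 encodes GITR and Tnfrsf4 encodes OX40, costimulators that lie next to each other on chromosome 4. The site assigned to Tnfrsf18, from 156030782, lay beyond the gene and 4660 bp downstream of its start, and held 0, 3 and 0 reads in the UTX-deficient libraries, against 37, 44 and 31 reads in the WT libraries. A stronger site between both receptor genes, from 156022187 to 156022587, is assigned to Gm16008. It held 5, 5 and 0 reads in the UTX-deficient libraries, against 149, 125 and 93 reads in the WT libraries. The authors' deposited table puts its log2 fold at -4.95. Its edge is 5574 bp from Tnfrsf4, which has no site of its own, and no row number is skipped around Tnfrsf4. That stronger site lies nearer to Tnfrsf18, whose annotated span begins at 156026322. The ligand genes Tnfsf8 (CD30 ligand) and Tnfsf14 (LIGHT) had no site, with the nearest listed site 286351 and 53472 bp away. Cd44, an adhesion receptor raised on activated cells, Klrk1, which encodes the activating receptor NKG2D, and Cd226, the activating partner of TIGIT, had none either. The nearest listed site lay 171623 bp from Cd44, 123411 bp from Klrk1 and 4225159 bp from Cd226.

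Of the inhibitory receptors, Tigit carried 3 sites on chromosome 16, 1 on the promoter and 2 upstream. TIGIT binds CD155 and competes there with the activating receptor CD226. The promoter site, from 43664111 to 43664511, held 3, 5 and 0 reads in the UTX-deficient libraries, against 64, 58 and 33 reads in the WT libraries. The site at -26277 bp from the start held 1, 1 and 0 reads in the UTX-deficient libraries, against 30, 25 and 21 reads in the WT libraries. The farthest, at -35019 bp, held 2, 1 and 0 reads in the UTX-deficient libraries, against 46, 36 and 26 reads in the WT libraries. WT signal was highest at the promoter, while the log2 folds in the authors' deposited table were -3.93, -4.02 and -4.34 with distance from the gene. UTX-deficient signal came to 5.13%, 2.61% and 2.76% of WT, with counting intervals that overlap. Cd96, which encodes another receptor for CD155, had no site, and the nearest listed site lay 12961 bp away with 4 row numbers skipped around the gene.

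Cd5 and Cd6 encode scavenger-type receptors that dampen T cell receptor signals and lie near each other on chromosome 19. The Cd5 site, from 10738778, centred at -4 bp from the start, held 1, 8 and 0 reads in the UTX-deficient libraries, against 61, 43 and 28 reads in the WT libraries. Cd6 had a site outside the gene, with its middle 1765 bp from an end, with 1, 4 and 0 reads in the UTX-deficient libraries, against 47, 36 and 40 reads in the WT libraries. Its other site, 222 bp from the opposite end, also held 1, 4 and 0 reads in the UTX-deficient libraries, against 21, 14 and 18 reads in the WT libraries. The Cd6 sites thus differed in WT reads, while their UTX-deficient reads were the same and too few to compare. UTX-deficient signal came to 4.04% of WT at the first, with a counting interval from 1.29% to 9.68%. At the second it came to 9.37%, from 2.92% to 23.3%, and the intervals overlap. Log2 folds in the authors' deposited table were -3.13 for Cd5 and -4.07 and -2.22 for Cd6, the last with an FDR of 0.0387.

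Cd274 encodes PD-L1, the ligand of PD-1, and Cd101 an inhibitory receptor found on terminally exhausted cells. The Cd274 promoter site held 2, 3 and 0 reads in the UTX-deficient libraries, against 29, 22 and 17 reads in the WT libraries. An end of Plgrkt lies 39 bp from its middle, so that site falls on both genes. The annotated span of Cd274 begins 5224 bp before that middle, and a site over its beginning, from 29361735, is assigned to Plgrkt. It held 1, 5 and 0 reads in the UTX-deficient libraries, against 31, 22 and 21 reads in the WT libraries. The Cd101 promoter site held 1, 3 and 0 reads in the UTX-deficient libraries, against 38, 23 and 9 reads in the WT libraries, with the WT libraries spread widely. In the authors' deposited table the log2 folds were -3.04 for Cd274 and -2.81 for Cd101, with an FDR of 0.00571 for Cd101.

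The other inhibitory genes had no listed site, as had most protein-coding genes. Pdcd1, which encodes PD-1, had its nearest listed site 2625 bp beyond the end opposite to its start, assigned to Neu4. That site held 5, 7 and 0 reads in the UTX-deficient libraries, against 85, 49 and 45 reads in the WT libraries. Counting the nearest gene end or any gene overlapped, instead of the authors' assignment, gives that site to Pdcd1 and raises the members with a site to 14. The share of all protein-coding genes under that looser rule was not computed. Lag3, which encodes a receptor for MHC class II, lies 18056 bp from the Cd4 site, with no row number skipped around the gene. Havcr2 (TIM-3), Entpd1 (the ectoenzyme CD39), Cd160, Btla, Cd200 (ligand of an inhibitory myeloid receptor), Klrd1 (CD94) and Klrg1 had none either, with gaps from 23715 bp at Entpd1 to 223116 bp at Cd200. Over the 23 members with no site, the median gap to a listed site of any gene was 123411 bp. Only 2 of them, Pdcd1 and Tnfrsf4, had a listed site within 10 kb, and 14 had none within 100 kb. The table lists differing sites alone, so a gene with no row may still have UTX signal that did not pass the authors' test or was not tested.

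**Figure D3:**
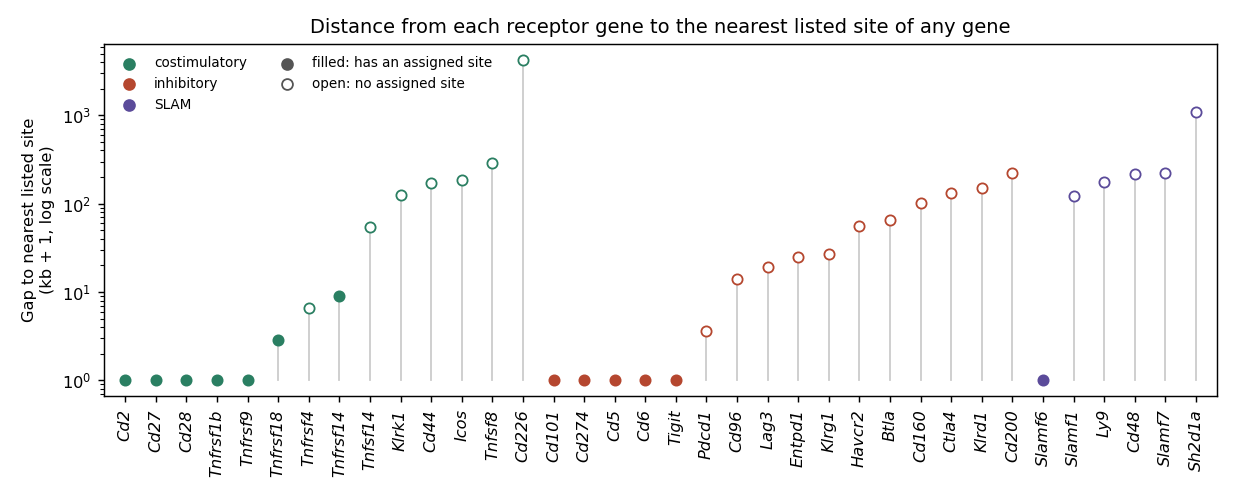
The vertical axis gives the gap from each gene to the nearest listed site of any gene, in kb plus 1 on a log scale, with filled points for genes that have an assigned site. Pdcd1 at 2625 bp and Tnfrsf4 at 5574 bp are the open points nearest to a site, and Cd226 is the farthest at 4225159 bp.

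In the SLAM family, Slamf6 was the only member with a site. It encodes Ly108, the marker by which the cells were sorted, so the cells were chosen for its protein. The site, from 171921316 to 171921716 on chromosome 1, lies in the gene 4054 bp downstream of the start and outside the promoter window. It held 4, 6 and 0 reads in the UTX-deficient libraries, against 63, 48 and 45 reads in the WT libraries. The libraries had 2.07, 5.59 and 0 normalized reads in UTX-deficient cells, against 49.3, 52.4 and 56.8 in WT cells, and UTX-deficient signal came to 6.37% of WT. The log2 fold was -3.73 with an FDR of 7.08e-15 in the authors' deposited table. Ly9, Slamf7, Cd48, Slamf1 and Slamf6 form a cluster from 171588613 to 171948958, and the Slamf6 site was the only listed site in it. Row numbers skipped before the Slamf6 site numbered 3, in the interval that holds the other receptors of the cluster. Sh2d1a, on chromosome X, encodes the adaptor SAP and had no site within 1101745 bp.

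The share of WT signal left was lowest at a Tigit site, 2.61%, and highest at a Cd28 site, 14.8%. Its median was 6.98% over the 19 costimulatory sites and 5.40% over the 8 inhibitory sites, and the Slamf6 site had 6.37%, against 4.90% over all lower sites. The ranges of both larger classes overlapped, 2.66% to 14.8% and 2.61% to 9.37%, and sites of a gene are no replicates, so no test was made between them. With 2 to 63 UTX-deficient reads per site, most counting intervals are wide. Besides the first 3 Cd28 sites, only the strong Tnfrsf14 site, at 6.98% with an interval from 5.31% to 9.01%, lay wholly above that median, and no other interval lay wholly above or below it.

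**Figure D4:**
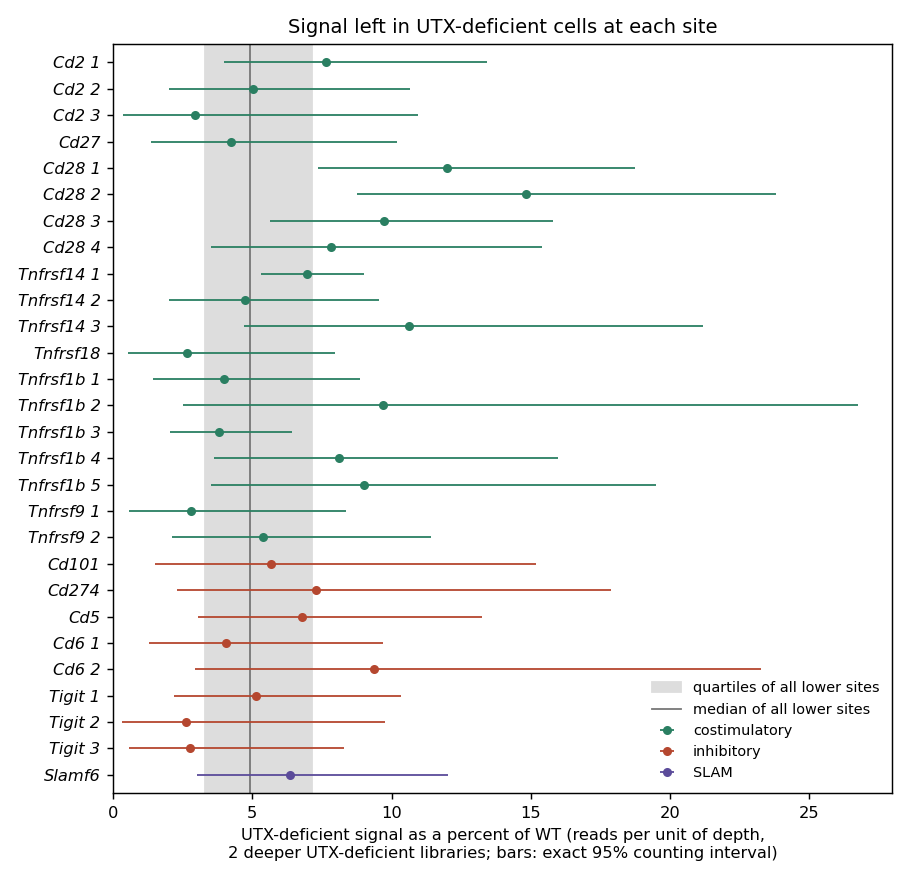
Points give the UTX-deficient signal as a percent of WT at each of the 28 sites with exact 95% counting intervals, and the grey band and line give the quartiles and median of all lower sites. Cd28 sites 1 to 3 and the first Tnfrsf14 site lie above the median of 4.90% with their whole interval.

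Listed sites were also counted at the molecules that these receptors engage and at the proteins that carry their signals, with no test between the lists. Of 37 other ligands, receptors and adaptors, 6 (16.2%) had a lower site, beside the 22.1% of all protein-coding genes. They were Pdcd1lg2 (PD-L2), Vsir (the inhibitory receptor VISTA), Tyrobp, Lgals9 (galectin-9), Tnfrsf8 and Vtcn1. The B7 genes Cd80 and Cd86, the TNF ligand genes Cd70, Tnfsf4, Tnfsf9 and Tnfsf18, and the SLAM genes Cd84 and Cd244a had none. The Pdcd1lg2 site, 18657 bp from an end of the gene, held 3, 4 and 0 reads in the UTX-deficient libraries, against 91, 82 and 55 reads in the WT libraries. At Vsir the reads were 7, 14 and 0 in the UTX-deficient libraries, against 148, 115 and 98 in the WT libraries. Tnfsf11 had 1 site higher in UTX-deficient cells in the authors' deposited table, with WT reads of only 1, 2 and 3. Its UTX-deficient reads had no single solution. How far that site rests on the near-empty library, where 1 read counts as 173.2 normalized reads, is thus not known. Of 30 signalling proteins downstream, 26 (86.7%) had a lower site, all except Cbl, Dok1, Traf6 and Ubash3a. Ptpn22, a phosphatase that restrains receptor signals, held 10, 11 and 0 reads at its site of smallest FDR in the UTX-deficient libraries, against 129, 121 and 82 reads in the WT libraries. Traf3, an adaptor of TNF receptors, held 1, 6 and 0 reads in the UTX-deficient libraries, against 79, 70 and 53 reads in the WT libraries. Inpp5d, which encodes the lipid phosphatase SHIP1, had 3 sites, and Lck, the kinase bound by the CD4 and CD8 coreceptors, had 2 lower sites and 1 higher. The higher Lck site had a log2 fold of 2.27 and an FDR of 0.0182 by the authors' deposited table. Each of these lists was chosen with results of the same data known.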

How the data were processed

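UTX CUT&Tag was measured in 6 samples, 3 UTX-deficient and 3 WT, grouped by the labels. The submitters' processing notes name mm10 as the build and, among tools, DiffBind, MACS2, Picard, SAMtools, Bowtie2, cutadapt and FastQC. The sources used here give no role or version for them, nor whether peaks were called per sample. IgG controls were not used here. Per the file headers, the deposited concentrations and fold are log2 values, the fold negative where UTX-deficient cells are lower. The p-value and FDR are the authors' own, every deposited FDR is under 0.05, and their ratio gives 8293 tests.

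Reads were recovered here from the deposited group means, each a sum of 3 whole read numbers times what 1 read of its library is worth. Of 6739 sites, 6737 in WT and 6722 in UTX-deficient cells had exactly 1 solution. Of 1000 sums shifted at random, 0.4% in WT and 0.1% in UTX-deficient cells were solved, and the 6 depths summed to 6. Recovery and limma were tested on simulated data. With 6739 simulated sites, UTX-deficient reads were wrong at 0 of 6718 solved lower sites and at 7 of 8 solved higher sites. Recovered UTX-deficient reads are therefore not given for higher sites. The near-empty library was given 0 reads at every simulated lower site, so its recovery was not checked there. A library's normalized reads are its reads divided by its depth. Limma 3.58.1 in R 4.3.3 was run on log2(normalized reads + 1) of the 6720 sites with 1 solution in both groups, with Benjamini-Hochberg adjustment. Reads are not independent molecules, so intervals (exact binomial, conditional on the total) cover counting error only.

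Members, classes and lists were chosen with earlier results of these data known. The rule for named genes was every member, the markers (1 of which is not reported here), and up to 4 genes of each pathway list by FDR. Neighbouring genes (Neu4, Plgrkt, Gm16008, Park7), Tnfsf11, and further names from the pathway lists were added after their values were seen. Genes and promoter sequences are from RefSeq on GRCm38.p6, where 6677 sites matched a gene. The rule had planned sequence for the strongest site of each class and for sites near chosen genes. As no genome was used, motifs were searched and sequence is shown for promoter windows under a site instead, a choice made after the data were seen. The alternatives were other thresholds, other site assignments, limma with pseudocounts of 0.5 and 4, a filter on low sites, and leaving out each library.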

Additional observations from a re-analysis of the deposited data

How the results depend on the processing

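The count of 13 members with a site stayed between 11 and 14 in most settings. These were FDR limits of 0.01 and 0.001, a limit of 10 kb to a gene end, and overlap with the gene (chosen after seeing the data). The others were assignment to the nearest gene end or any gene overlapped, and all limma settings. With all listed lower sites, 22.1% of all protein-coding genes had a site. Under those FDR limits 19.5% and 16.6% had one, within 10 kb 19.3% and with overlap 18.9%. The limma settings could hardly move the count, since each called 99.9% of these preselected sites lower. Within 1 kb of a gene end the count fell to 7, with 3 costimulatory, 4 inhibitory and 0 SLAM genes, beside 15.3% of all protein-coding genes. Sites farther from an end of the annotated span were left out by construction, the Cd274 promoter site among them. The overlap limit left out Tnfrsf14 and Tnfrsf18, and the FDR limit of 0.001 left out Cd101. Assignment to the nearest gene end or any gene overlapped added Pdcd1, and no share of all protein-coding genes was computed for it. All 278 limma values for single member sites kept their direction and stayed past the threshold. Limma called all 28 member sites lower in each setting except the filter on low sites, which tested 26 and called 26. The median log2 difference over member sites was -3.39 in the authors' deposited table. It was -4.27 by limma with all libraries, -4.80 with a pseudocount of 0.5, -3.04 with a pseudocount of 4 and -4.30 with the filter. Leaving out 1 library in turn gave -4.20, -4.80 and -3.68 for the deepest, second and near-empty UTX-deficient library, and -4.31, -4.16 and -4.25 for the deepest, second and shallowest WT library. Such log2 values depend on the pseudocount because UTX-deficient reads are few. Over all sites limma called 6711 to 6716 lower. No paired analysis was possible because the recovered libraries carry no replicate number. Where an arm had 2 libraries, limma pooled the spread over both groups. At 2 to 63 UTX-deficient reads per member site, differences between sites in the share of signal left are mostly not detectable at this depth.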
